A study of Mus musculus with 6 samples.

Results

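The genes described here are 9 immune receptor genes of the Fc receptor and CD300 families, measured in BV-2 cells with and without lipopolysaccharide (LPS), out of 22180 genes that had a row of their own on the array. They were chosen by name, as rows annotated with exactly 1 gene, and each of the 9 had a single such row. BV-2 is a mouse microglial line transformed with a retrovirus carrying raf and myc oncogenes, and LPS is a cell wall component of Gram-negative bacteria detected by Toll-like receptor 4. The control group was 3 arrays of resting BV-2 cells. The LPS group was 3 arrays of the same line given LPS of Escherichia coli O111:B4 at 1 µg/mL for 24 h, and both groups were plated in medium with reduced serum. Replicates carry the numbers 1 to 3 in either group. Nothing says that each was its own culture, so the p-values refer to array-to-array spread, which may be technical. Being an immortalised line in culture, the cells are a model of microglia and not brain tissue.

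Fc gamma receptors bind the constant part of IgG and let macrophages and microglia engulf antibody-coated particles. Mouse Fcgr1, Fcgr3 and Fcgr4 are activating receptors of high, low and intermediate affinity, and they signal through the common gamma chain Fcer1g, whose cytoplasmic ITAM motif recruits the kinase Syk. Fcgr2b is the inhibitory counterpart, with an ITIM motif that recruits the lipid phosphatase SHIP1. The CD300 receptors bind lipids exposed on dying cells and other ligands and are likewise paired: Cd300a and Cd300lf carry ITIM motifs, while Cd300lb and Cd300ld lack them and signal through ITAM adaptors. In the RefSeq annotation (GRCm38.p6) Fcgr2b, Fcgr4 and Fcgr3 follow each other on chromosome 1 with no other protein-coding gene between them, Fcgr1 is on chromosome 3, and the 4 CD300 members lie in one cluster on chromosome 11. The array's own build is not given in the sources used here.

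Stretches upstream of the annotated start sites are shown for the Fc gamma receptor genes with matches to myeloid and interferon-linked motifs, and for the CD300 genes with the largest within-array difference between groups. The sequences are the 250 bases before the start in RefSeq's GRCm38.p6 table, in which all 9 genes were found, and Fcgr3, which has more than one start there, is shown for the first listed. Capitals mark letters that match one of 5 motifs searched on both strands: TTCNNNGAA (GAS, bound by STAT factors), GAAANNGAA (core of the interferon response element), GAGGAA (core of sites for PU.1 and other ETS factors), GGGANTTTC (NF-kappaB) and TGANTCA (AP-1).
Fcgr1 (chr3:96293970-96294219, minus strand): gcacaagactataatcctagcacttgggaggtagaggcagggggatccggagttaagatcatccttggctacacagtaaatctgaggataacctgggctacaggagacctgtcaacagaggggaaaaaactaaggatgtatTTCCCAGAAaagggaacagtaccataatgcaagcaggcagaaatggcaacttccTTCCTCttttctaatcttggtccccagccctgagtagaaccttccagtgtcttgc
Fcgr4 (chr1:171018676-171018925, plus strand): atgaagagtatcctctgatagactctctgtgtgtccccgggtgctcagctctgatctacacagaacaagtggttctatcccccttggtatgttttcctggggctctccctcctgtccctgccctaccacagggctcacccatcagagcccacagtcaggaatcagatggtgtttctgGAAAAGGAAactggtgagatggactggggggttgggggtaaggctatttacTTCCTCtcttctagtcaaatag
Fcgr3 (chr1:171059404-171059653, minus strand): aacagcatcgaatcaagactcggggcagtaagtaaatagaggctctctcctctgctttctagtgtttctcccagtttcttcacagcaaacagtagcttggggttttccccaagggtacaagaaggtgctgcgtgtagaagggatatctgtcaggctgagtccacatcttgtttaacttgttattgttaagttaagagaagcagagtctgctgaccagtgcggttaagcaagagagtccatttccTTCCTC
Cd300ld (chr11:114989887-114990136, minus strand): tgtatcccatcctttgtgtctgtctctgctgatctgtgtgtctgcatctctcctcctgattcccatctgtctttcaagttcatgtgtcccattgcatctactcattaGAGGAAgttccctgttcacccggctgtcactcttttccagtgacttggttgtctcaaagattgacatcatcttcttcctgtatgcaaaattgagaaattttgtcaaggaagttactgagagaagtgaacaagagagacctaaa
Cd300a (chr11:114889791-114890040, plus strand): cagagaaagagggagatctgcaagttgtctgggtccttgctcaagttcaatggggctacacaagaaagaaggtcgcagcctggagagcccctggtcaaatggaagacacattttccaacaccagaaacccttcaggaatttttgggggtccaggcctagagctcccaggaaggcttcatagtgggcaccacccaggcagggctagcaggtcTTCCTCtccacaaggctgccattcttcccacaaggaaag

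The Fcgr1 window held a GAS match, TTCCCAGAA, at position -109 from the start and an ETS-core match at -55. Among 32851 windows of the same length, 7.02% held a GAS match. The Fcgr4 window held an interferon-element match, GAAAAGGAA, at -73, a motif found in 7.13% of windows, and an ETS-core match at -22. A further match to the interferon element, on the other strand, stood at -144 for Cd300lf. An ETS-core match stood in the windows of 6 of the 9 genes (Fcgr1, Fcgr3, Fcgr4, Cd300a, Cd300ld and Cd300lf), against 23.3% of all windows. No window of the 9 genes held these NF-kappaB or AP-1 letters, which 0.941% and 6.75% of all windows held, and no matches of different motifs overlapped in them. These matches describe letters and are not evidence of binding, and the expression values below are not a test of them.

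Expression was read as the deposited log2 value per transcript cluster, a group of probes for 1 transcription unit. Array medians lay between 2.88 and 2.97. As a background level, 1443 rows of chemosensory receptor genes (olfactory, vomeronasal and taste), which microglia are not known to use, had a 95th percentile of 3.08, and the means of all 9 receptor genes lay above it, from 5.10 to 10.23. Microglia and macrophage markers were present, with Cd68 at a mean of 10.80 and Adgre1 at 9.44. Aif1 and Cx3cr1, named after their values were seen, were lower at 3.97 and 3.70. Mast cell, B cell and neutrophil markers had no row above that percentile (0 of 6, 0 of 4 and 0 of 5), while T and NK cell markers had 1 of 4 (Ncr1 at 3.17) and dendritic cell markers 2 of 5 (Zbtb46 at 3.26 and Ccr7 at 4.02). Fc receptors are known from several of these cell types too. As a check of the labels, Acod1, an enzyme induced in activated macrophages, had controls at 4.46, 3.44 and 4.48 and LPS arrays at 10.72, 10.65 and 10.80, a log2 difference of 6.60 (limma adjusted p = 0.0012).

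None of the 9 receptor genes passed the test. In limma with Benjamini-Hochberg adjustment over all 41345 rows, 0 of 9 were called higher and 0 of 9 lower at adjusted p under 0.05, where 0.193% of all rows were called higher and 0% lower. At an unadjusted p under 0.05, 1 gene was higher (Cd300ld) and 0 were lower, against 4.98% and 1.4% of all rows, or 9.29% and 1.71% of the 19060 rows above the chemosensory level. These unadjusted counts moved with the normalization. After quantile normalization Fcgr3, Cd300a and Cd300lb were lower (limma unadjusted p = 0.013, 0.0095 and 0.0035), and Cd300ld had limma unadjusted p = 0.070. Under that setting 1514 of all 41345 rows were higher and 1290 lower at an unadjusted p under 0.05. Every LPS array lay above every control array for 3 genes, Fcgr1, Fcgr2b and Cd300ld, and below for none. That pattern held upward in 7.74% of all rows, or 12.1% of the rows above the chemosensory level, and downward in 3.48% and 2.26%. The median log2 difference of the 9 genes was 0.03, the same to 2 decimals as over all rows, and the median of the rows above the chemosensory level was 0.11.

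LPS replicate 3 stood apart for these genes. It was the highest LPS array for 9 of 9, against 38.4% of all rows and 48.5% of rows above the chemosensory level, and exceeded the mean of the other LPS arrays by between 0.08 (Cd300lf) and 1.54 (Fcgr4), with a median of 0.74. In the same array, 9 of 9 type I interferon-stimulated genes, a list added after the data were seen, were also the highest of the LPS group, by a median of 1.52. In the related lists described below, it was the highest LPS array for 9 of 14 other Fc receptor and 3 of 5 other CD300 genes. The counts were 14 of 25 for ITAM signalling, 9 of 12 for ITIM signalling, 9 of 16 for actin machinery and 6 of 12 for paired receptors. Control replicate 2 was the lowest control for 7 of the 9 receptor genes, against 50.6% of all rows and 59.7% of rows above the chemosensory level. Over all rows, LPS replicate 3 had the highest upper quartile of the 6 arrays (5.27) and control replicate 2 the lowest (4.85). The part of either array in the results below was not tested. In bulk RNA, a change in the number of cells that use a gene and a change in RNA per cell cannot be told apart.

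**Figure D1:**
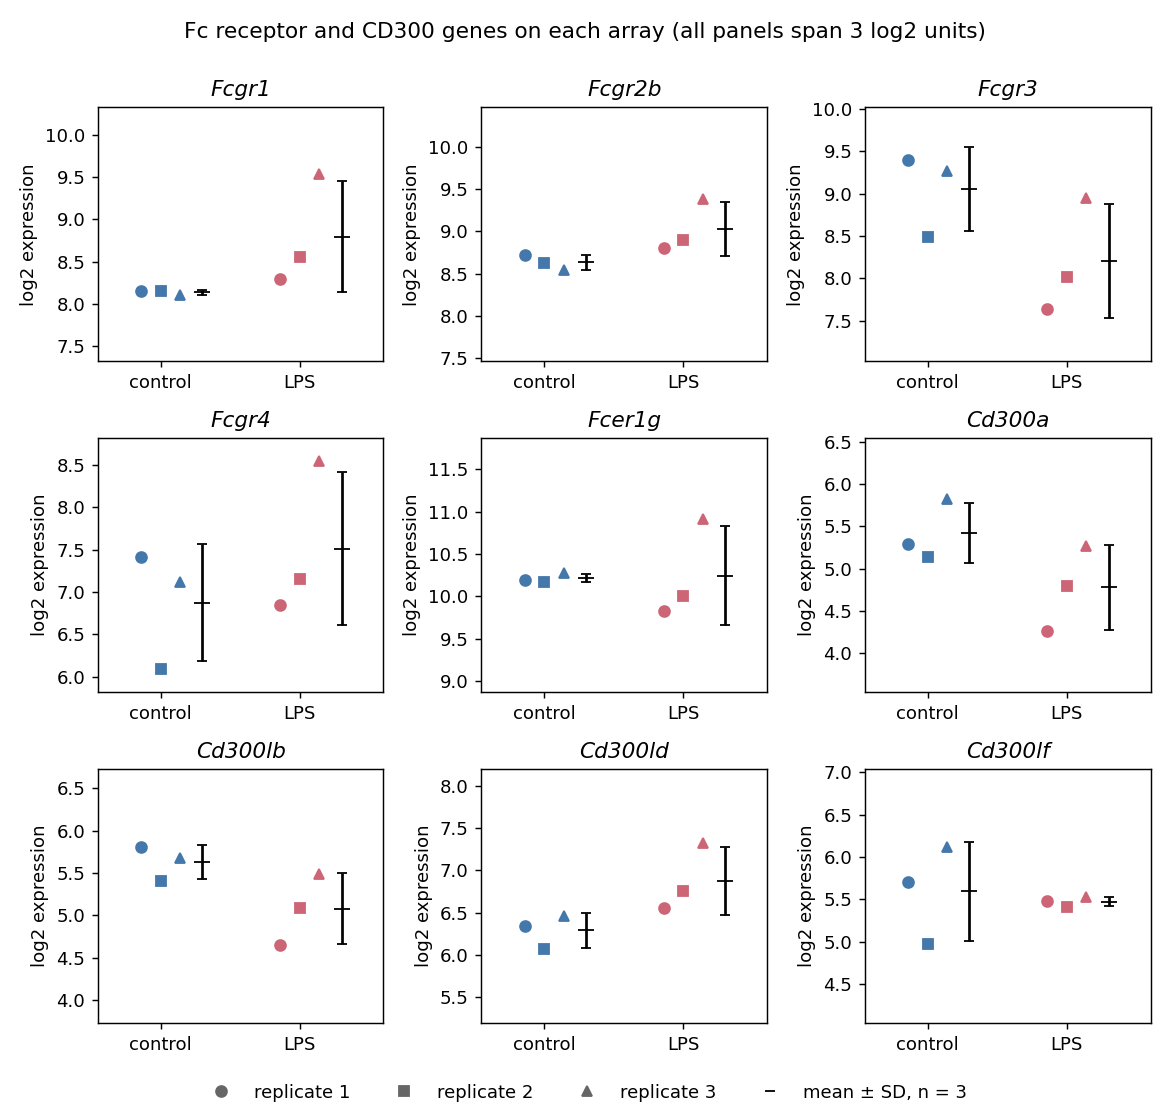
Log2 expression of each receptor gene (vertical axis) on the 3 control and 3 LPS arrays, with symbols for the replicate number and a bar for the mean ± SD of 3 arrays. LPS replicate 3, the triangle, is the highest LPS array in all 9 panels, and the groups do not overlap for Fcgr1, Fcgr2b and Cd300ld.

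Fcgr1, the high-affinity receptor for IgG, read 8.15, 8.15 and 8.11 on the control arrays and 8.30, 8.56 and 9.54 on the LPS arrays. The controls agreed closely and every LPS array was above them, with LPS replicate 3 far above the rest. Its mean went from 8.14 ± 0.03 to 8.80 ± 0.66 (SD, n = 3), a log2 difference of 0.66 (SE 0.32, limma adjusted p = 0.85; 95% interval -0.09 to 1.41). Without LPS replicate 3 the difference was 0.29.

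Fcgr4, the activating receptor for IgG2 subclasses, had controls at 7.41, 6.09 and 7.13 and LPS arrays at 6.85, 7.15 and 8.54. The groups overlapped, with the lowest value in control replicate 2 and the highest in LPS replicate 3. The difference was 0.64 (SE 0.52, adjusted p = 0.99; 95% interval -0.60 to 1.88). Leaving out control replicate 2 gave 0.25, leaving out LPS replicate 3 gave 0.12, and leaving out both gave -0.27, so the direction of Fcgr4 was not settled.

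Fcgr3, the low-affinity activating receptor (CD16), pointed the other way. Controls read 9.40, 8.49 and 9.27, and LPS arrays 7.64, 8.02 and 8.95. Only LPS replicate 3 reached into the range of the controls, above the low control replicate 2. Its mean of 9.05 ± 0.49 in controls stood beside 8.20 ± 0.67 after LPS (SD, n = 3), and the difference of -0.85 was the largest in size among the 9 genes (SE 0.39, adjusted p = 0.84; 95% interval -1.78 to 0.08). It was -1.13 when control replicate 2 was left out, -1.22 (adjusted p = 0.38) when LPS replicate 3 was, and -0.57 when LPS replicate 1 was. With control replicate 2 and LPS replicate 3 omitted together it was -1.504, and the limma adjusted p = 0.059 still missed the threshold. Those arrays are the lowest control and the highest LPS array for Fcgr3, so omitting them was bound to enlarge the difference. Over all rows, the same omission called 67 lower, where 0 were called lower with all arrays.

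Fcgr2b, the inhibitory receptor, had controls at 8.73, 8.63 and 8.55 and LPS arrays at 8.80, 8.89 and 9.39. All LPS values were higher than all control values, by a margin that was narrow for LPS replicate 1. The difference was 0.39 (SE 0.19, adjusted p = 0.85; 95% interval -0.06 to 0.84), or 0.21 without LPS replicate 3. Fcer1g, the signalling chain that the activating receptors share, read 10.20, 10.17 and 10.27 in controls and 9.82, 9.998 and 10.91 after LPS. The LPS arrays scattered on both sides of tight controls, which left a difference of 0.03 (SE 0.29, adjusted p = 1.00; 95% interval -0.66 to 0.71). It was -0.30 without LPS replicate 3 and -0.05 after quantile normalization.

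Of the CD300 genes, Cd300ld (CLM-5), an activating receptor that pairs with the common gamma chain, had controls at 6.34, 6.07 and 6.46 and LPS arrays at 6.55, 6.75 and 7.33. The groups were separate. The difference was 0.59 (SE 0.23, unadjusted p = 0.042 and adjusted p = 0.74 in limma; 95% interval 0.03 to 1.14), and it was 0.36 without LPS replicate 3. This was the gene with the smallest p of the 9, at rank 2351 among all rows.

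Cd300a, an inhibitory receptor that binds phospholipids of dying cells, read 5.30, 5.14 and 5.82 in controls and 4.27, 4.80 and 5.27 after LPS. LPS replicates 1 and 2 were below all controls, and LPS replicate 3 was within their range. The difference was -0.64 (SE 0.30, adjusted p = 0.85; 95% interval -1.35 to 0.07), with -0.89 once LPS replicate 3 and -0.39 once LPS replicate 1 was omitted. Cd300lb (CLM-7), an activating receptor that signals through the adaptor Tyrobp (DAP12), showed the same arrangement, with controls at 5.81, 5.41 and 5.68 and LPS arrays at 4.65, 5.09 and 5.49. Its difference was -0.55 (SE 0.24, adjusted p = 0.82; 95% interval -1.13 to 0.02), or -0.76 when LPS replicate 3 and -0.34 when LPS replicate 1 was left out.

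Cd300lf (CLM-1), an inhibitory receptor known as the entry receptor of murine norovirus, had controls at 5.70, 4.97 and 6.11 and LPS arrays at 5.48, 5.41 and 5.52. LPS arrays lay close together inside the wide range of the controls. The difference was -0.12 (SE 0.29, adjusted p = 1.00; 95% interval -0.80 to 0.56), and it was -0.44 without control replicate 2 and 0.14 without control replicate 3. A further pair of rows is annotated to Cd300lf together with Cd300ld3, Cd300ld4 and Cd300ld5. One read 4.81, 4.84 and 4.81 in controls and 5.35, 5.81 and 5.35 after LPS, and the other 5.00, 5.01 and 4.73 against 5.36, 5.85 and 5.49. Their groups did not overlap, and the differences of 0.68 and 0.66 (adjusted p = 0.38 and 0.47 in limma) are not those of any 1 named gene. In neither was LPS replicate 3 the highest array.

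**Figure D2:**
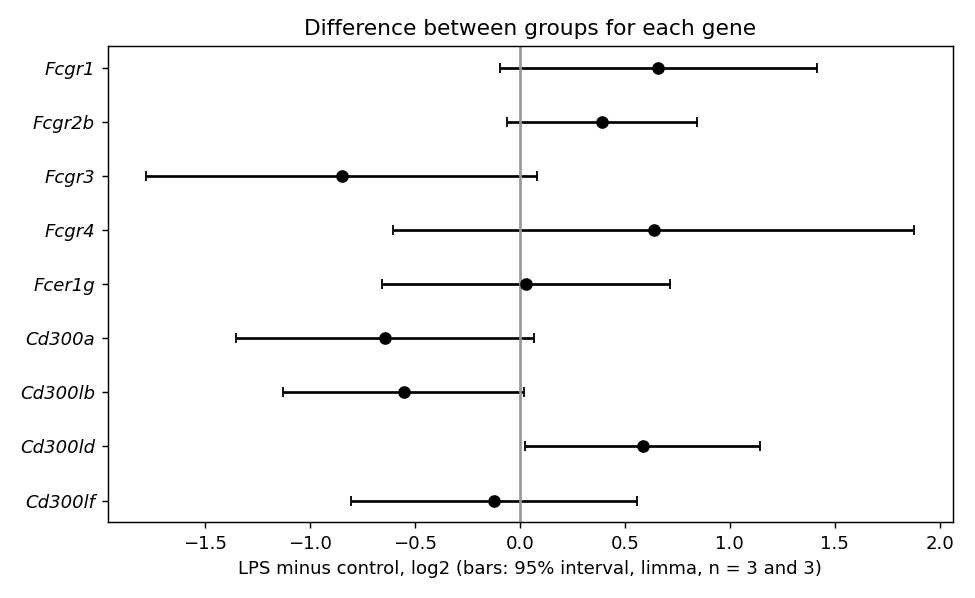
LPS minus control on the log2 scale (horizontal axis) for each of the 9 genes, with the 95% interval from limma on 3 and 3 arrays. The intervals of 8 genes include 0 and that of Cd300ld starts at 0.03, before any adjustment for the number of rows.

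Differences between receptors on the same array were also compared, with the inhibitory genes Fcgr2b and Cd300a as references. They ask whether activating and inhibitory receptors of a family shifted by unequal amounts. LPS replicate 3 exceeded the mean of the other LPS arrays by 1.12 for Fcgr3 and 0.54 for Fcgr2b, so a difference does not remove that excess. Cd300lf is inhibitory too, so its difference from Cd300a compares 2 inhibitory receptors. For Fcgr3 minus Fcgr2b the controls had 0.67, -0.14 and 0.73 and the LPS arrays -1.16, -0.88 and -0.43. All LPS arrays were below all controls, LPS replicate 3 included. The mean went from 0.42 ± 0.49 to -0.82 ± 0.37 (SD, n = 3), so the Fcgr3 signal relative to Fcgr2b differed by -1.24 log2 units (two-sided exact permutation p = 0.10, adjusted p = 0.30 over 6 pairs). That is a ratio of signals 2.36 times lower after LPS. It ranged from -1.52 to -1.07 with 1 array left out, and lay at -1.25 after quantile normalization. Such an order was not rare, as every LPS value of Fcgr2b was above its controls: 26.9% of all other rows lay wholly below their controls when set against Fcgr2b, with a median difference of -0.36, and 1.26% lay wholly above.

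For Cd300ld minus Cd300a the controls had 1.05, 0.93 and 0.65 and the LPS arrays 2.29, 1.95 and 2.06. The groups were far apart relative to their spread, and LPS replicate 3 was in the middle of its group. The mean went from 0.87 ± 0.21 to 2.10 ± 0.17 (SD, n = 3), a difference of 1.23 log2 units or 2.34-fold in the ratio (exact permutation p = 0.10, adjusted p = 0.30), between 1.11 and 1.31 with 1 array left out. Set against Cd300a, 29.1% of all other rows were wholly above their controls, with a median difference of 0.67, and 0.0363% wholly below, so such a separation was common with Cd300a as the reference. Both p-values of 0.10 are the smallest that the exact permutation test of 3 arrays against 3 can give, so no pair could pass 0.05 in that test.

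The other 4 pairs overlapped between groups. Fcgr1 minus Fcgr2b differed by 0.27 in the mean (exact permutation p = 0.30) and Fcgr4 minus Fcgr2b by 0.25 (exact permutation p = 0.70). The former was 0.08 without LPS replicate 3 and 0.41 without LPS replicate 1. The latter turned to -0.14 when control replicate 2 and to -0.09 when LPS replicate 3 was omitted. Cd300lf minus Cd300a differed by 0.52 (exact permutation p = 0.30) and Cd300lb minus Cd300a by 0.09 (exact permutation p = 0.80), the last with LPS arrays at 0.38, 0.29 and 0.22 inside a control range of -0.14 to 0.51. With single arrays omitted, Cd300lf minus Cd300a came to 0.26 (LPS replicate 1), 0.34 (control replicate 2) and 0.74 (LPS replicate 3).

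**Figure D3:**
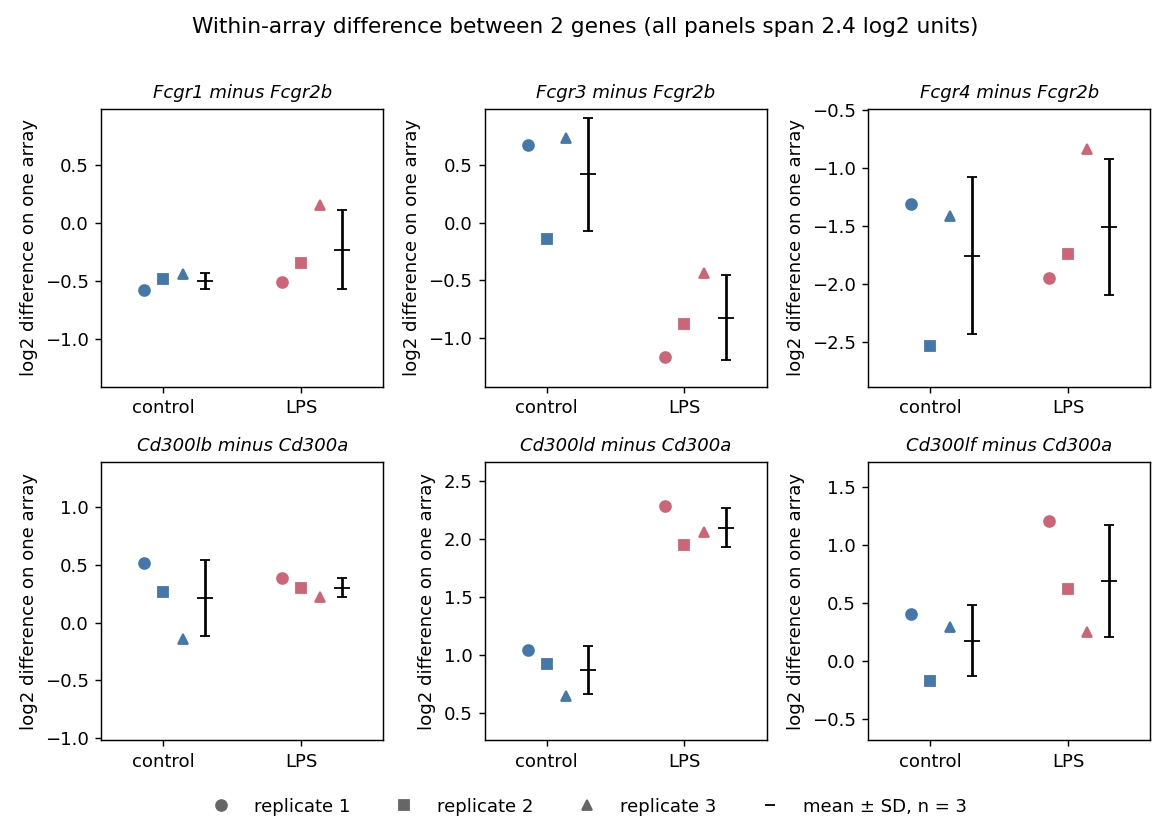
Log2 difference between a receptor gene and Fcgr2b or Cd300a on the same array (vertical axis), for 3 control and 3 LPS arrays with mean ± SD. LPS arrays are wholly below the controls for Fcgr3 minus Fcgr2b and wholly above for Cd300ld minus Cd300a, and the groups overlap in the other 4 panels.

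Fcgr3 had the largest difference in size, and the rows with the most similar profile were sought by the root mean square difference over 6 arrays of log2 values centred on each row's mean, among 23520 rows with 1 symbol. The nearest were Rnf166 (0.09), Xylt1 (0.14) and Pnpla7 (0.15). Their log2 differences were -0.77, -0.84 and -0.64, and none passed (limma adjusted p = 0.88, 0.79 and 0.91).

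In the rest of the CD300 family, 5 genes had a row of their own, and 0 passed in either direction. Cd300e, an activating receptor of monocytes, went from 3.45 ± 0.26 to 4.17 ± 0.20 (SD, n = 3; difference 0.72, adjusted p = 0.43) and Cd300c2 from 3.16 ± 0.27 to 3.69 ± 0.31 (0.53, adjusted p = 0.78), both without overlap. Cd300lg, known from endothelium, went from 5.52 ± 0.46 to 4.83 ± 0.12 and was wholly below its controls (-0.69, adjusted p = 0.65). Cd300ld3, the member with the highest mean, had 0.02. Cd300e and Cd300c2 were singled out after their values were seen. Of 14 other Fc receptor and Fc receptor-like genes 0 passed and 4 had a mean above the chemosensory level. Fcgrt, the neonatal receptor that recycles IgG, had -0.12, and Fcrl1 had 0.09. Fcgrt controls read 7.46, 5.30 and 7.56, and its LPS arrays 6.59, 6.79 and 6.56. With control replicate 2 left out, the differences were -0.86 for Fcgrt (limma adjusted p = 0.16) and 0.21 for Fcrl1. Fcrls, named after its value was seen, went from 3.44 ± 0.26 to 2.79 ± 0.35 (SD, n = 3), a difference of -0.65 (limma unadjusted p = 0.025, adjusted p = 0.65) with every LPS array below every control, at a mean just above the chemosensory level. The IgE receptor chains Fcer1a and Ms4a2, named likewise, with means of 1.63 and 2.26, lay below the chemosensory level.

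Downstream, 0 of 25 measured genes of ITAM adaptors and signalling passed, with 5 higher and 0 lower at an unadjusted p under 0.05, where 4.98% and 1.4% of all rows were, and a median difference of 0.08. The share for rows above the chemosensory level, where 24 of the 25 lie, was 9.29% and 1.71%, and these percentages are also the background of the unadjusted counts in the next lists. The adaptor Lcp2 (SLP-76) had 0.44 and the paracaspase Malt1 went from 8.16 ± 0.53 to 9.71 ± 0.13 (SD, n = 3; difference 1.55, adjusted p = 0.17). Chosen after their values were seen, the kinase Syk went from 5.78 ± 0.44 to 7.26 ± 0.28 (1.48, adjusted p = 0.18) and Src from 4.77 ± 0.28 to 6.65 ± 0.38 (1.87, adjusted p = 0.068), each without overlap. These exceeded in size any difference among the 9 receptors, while the adaptor Tyrobp, also named after its value was seen, had -0.18. Control replicate 2 was the lowest control for 24 of the 25 genes, and its part in these differences was not tested. With that array left out, the differences were 1.23 for Syk, 1.72 for Src and 1.24 for Malt1 (limma adjusted p = 0.14, 0.10 and 0.075), and with LPS replicate 3 left out they were 1.36, 1.66 and 1.5002 (limma adjusted p = 0.28, 0.083 and 0.28).

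Of 12 phosphatases and dampers of ITIM signalling 0 passed, with 3 higher and 0 lower at an unadjusted p under 0.05 and a median of -0.01. The receptor phosphatase Ptprc (CD45) had 0.41 and Ptpn6 (SHP-1) -0.03, and Inpp5d, which codes for SHIP1 and was named after its value was seen, had -0.34. Among 16 genes of the actin machinery of phagocytosis 0 passed, with 2 higher and 0 lower at an unadjusted p under 0.05. Arpc2, of the complex that nucleates branched actin, had -0.06 and the GTPase Rac2 0.63, with a median of 0.00 over the list. Control replicate 2 was the lowest control for 16 of the 16 actin genes, against 59.7% of rows above the chemosensory level. Rac2 controls read 10.10, 8.99 and 10.20. With control replicate 2 left out, the differences were 0.24 for Rac2 and -0.16 for Arpc2. The part of that array in this list was not tested. Of 12 measured paired immunoglobulin-like receptors 0 passed and 5 were higher at an unadjusted p under 0.05. Lilrb4a, an inhibitory receptor, had 0.33 and Sirpa -0.03, whereas Pirb (1.68, adjusted p = 0.14) and Pilra (1.56, adjusted p = 0.094), named after their values were seen, were wholly above their controls. Spi1, which codes for PU.1 and was named after its value was seen, read 7.33 in both groups, a difference of 0.00 (adjusted p = 1.00 in limma).

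**Figure D4:**
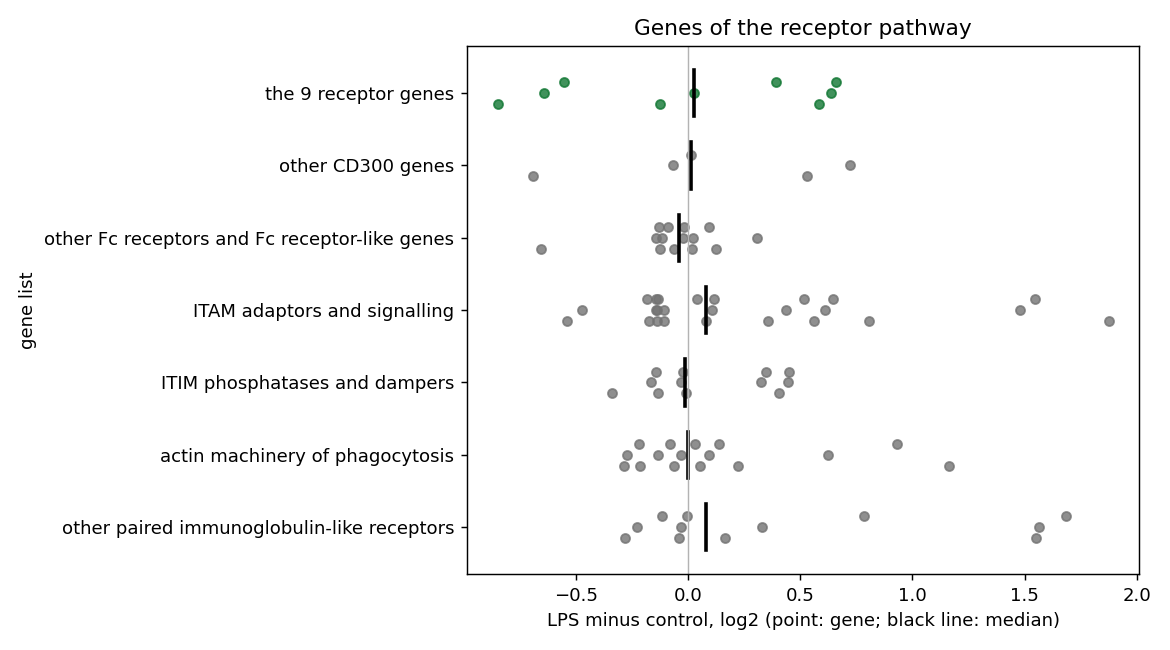
LPS minus control on the log2 scale (horizontal axis) for the 9 receptor genes and for 6 lists of related genes, 1 point a gene with the list median as a black line. Medians lie between -0.04 and 0.08, the 9 receptors spread from -0.85 to 0.66, and the points beyond 1.4 are Syk, Malt1 and Src in ITAM signalling and Pilra, Pilrb1 and Pirb among the paired receptors.

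**Figure D5:**
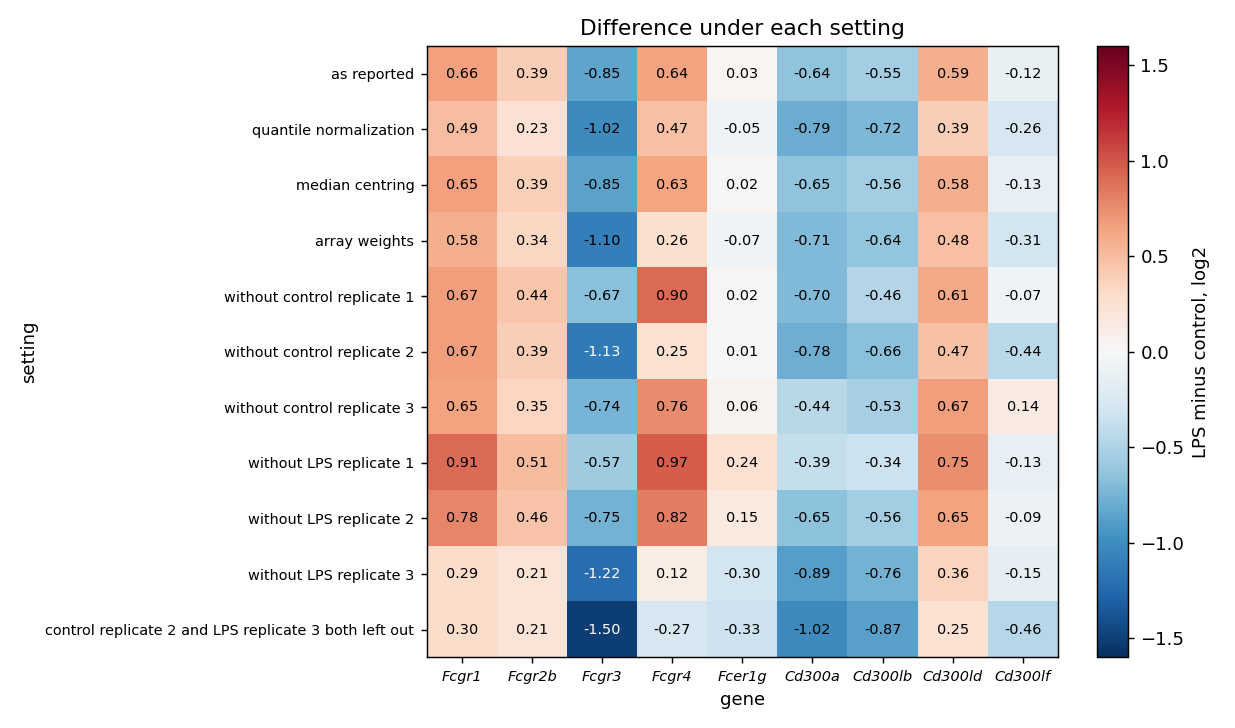
LPS minus control on the log2 scale (cell value and colour) for each gene (horizontal axis) as reported and under 10 other settings (vertical axis). Fcgr1, Fcgr2b and Cd300ld stay above 0 and Fcgr3, Cd300a and Cd300lb below 0 in all settings drawn, while Fcgr4, Fcer1g and Cd300lf each change sign in at least 1.

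Across the 15 alternatives tried, 0 of the 9 genes was called in any. Signs held throughout for 6 genes: Fcgr1 (0.29 to 0.91), Fcgr2b (0.21 to 0.51) and Cd300ld (0.25 to 0.75) above 0, and Fcgr3 (-1.504 to -0.57), Cd300a (-1.02 to -0.39) and Cd300lb (-0.87 to -0.34) below. Part of this was fixed beforehand. Settings that changed only the rows tested, the variance model or the block left every difference as reported. For Fcgr1, Fcgr2b and Cd300ld, whose groups did not overlap, leaving arrays out could not turn the sign.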

How the data were processed

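RNA of BV-2 cells was hybridised to 6 Affymetrix whole-transcript arrays, 3 per group. The values are deposited log2 expression values per transcript cluster, made by the authors. The submitters' processing notes name Affymetrix Expression Console as the program. Its version, background correction, normalization and summarization are not given in the sources used here, and the log2 scale was read from the values. Fold changes of dim rows may therefore be biased. Gene names came from platform annotation: 23521 rows had 1 symbol, 1814 several and 16010 none, and 23328 of the first matched a RefSeq gene identifier. For lists, 145 of 161 entries had a row (the added interferon list 9 of 10), and the row with the highest mean was used. LPS was compared with control by limma 3.58.1 in R 4.3.3 (lmFit, eBayes without trend, all 41345 rows, no filter), with Benjamini-Hochberg adjustment and a threshold of 0.05, and checked on simulated data. Within-array differences used an exact permutation test across the 6 arrays. Precision is limited by having 3 arrays per group. Members, lists and alternatives were chosen with earlier results of these data known. Named were the 9 members, the 2 list genes with the highest mean where none was called, Acod1, the 3 nearest profiles, and others chosen after their values were seen, which are marked as such or stand in the marker counts and captions. Alternatives covered normalization, dim rows, rows tested, variance model, array weights, a replicate block and arrays left out. None of the 9 members had another row of 1 symbol to try.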

Additional observations from a re-analysis of the deposited data

How the results depend on the processing

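No member was called under any of 15 alternatives, and 6 of the 9 kept their sign in all. Settings that changed only the rows tested, the variance model or the block could not turn a sign. Nor could leaving arrays out for Fcgr1, Fcgr2b and Cd300ld, whose groups did not overlap. The signs that turned were those of Fcgr4 (-0.27 with control replicate 2 and LPS replicate 3 omitted together), Cd300lf (0.14 without control replicate 3, and from -0.437 to 0.14 with 1 array omitted) and Fcer1g, with -0.055 after quantile normalization, -0.066 with array weights, between -0.30 (without LPS replicate 3) and 0.24 with 1 array omitted, and -0.33 without both arrays. Of the within-array differences, Fcgr4 minus Fcgr2b was -0.14 without control replicate 2 and -0.09 without LPS replicate 3, in a range up to 0.47, and Cd300lb minus Cd300a ran from -0.089 without control replicate 3 to 0.24. Over all rows, 80 were called higher and 0 lower. Array weights gave 132 higher, leaving both arrays out gave 152 higher and 67 lower, and leaving out 1 array gave between 15 and 76 higher and between 0 and 14 lower. The causes were not tested. With the replicate number as a block 7 rows were called higher and 0 members. Labels do not say that these numbers pair the arrays, so the block is not read as a paired design. Deviations from the group means correlated at 0.07, -0.26 and -0.22 over all rows for numbers 1 to 3. For arrays of unlike number the correlations ran from -0.14 to 0.27. With 3 arrays per group the deviations of a row sum to 0, so these correlations cannot decide whether the arrays were paired.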
